A study of Mus musculus with 6 samples.

Results

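The miR-30 family of microRNAs was described in mouse skin after repeated ultraviolet A (UVA) irradiation and in non-irradiated mouse skin. Its members were chosen by name alone: every entry of the count table whose name, without species, arm and copy number, is miR-30a, miR-30b, miR-30c, miR-30d, miR-30e or miR-30f. This gave 12 of 1480 entries, of which 5 are 5p arms (mmu-miR-30a-5p, mmu-miR-30b-5p, mmu-miR-30c-5p, mmu-miR-30d-5p and mmu-miR-30e-5p), 6 are 3p arms (mmu-miR-30a-3p, mmu-miR-30b-3p, mmu-miR-30c-1-3p, mmu-miR-30c-2-3p, mmu-miR-30d-3p and mmu-miR-30e-3p) and 1, mmu-miR-30f, carries no arm. The species prefix is dropped below. The UVA group was treated on alternate days over 4 months to a summed dose of 89.88 J/cm2, the other group had no treatment, and each group had 3 libraries of total skin RNA. Strain, sex, age and genotype were not given in the sources used here. Whether each replicate came from its own animal is not said in the labels, so the p-values cover only the spread among these libraries, which may be technical.

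A microRNA (miRNA) is cut as a short duplex from a hairpin, and the 5p and 3p arms are the strands of that duplex. The strand that is kept in Argonaute represses mRNAs that pair with its seed, bases 2 to 8, while the other strand is mostly degraded. The 5p arms of the miR-30 family share a seed and are known for restraining the epithelial-mesenchymal transition, as by repression of Snai1, and for favouring adipocyte differentiation in human cells by repression of RUNX2. In human skin, miR-30a has been described as raised in aged keratinocytes.

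The mature sequences are shown because the members differ by so few bases that the results below depend on how reads were assigned. Of the 12 entries, 8 were matched by name in the RefSeq miRNA table (GRCm38.p6). They are printed 5′ to 3′ with the seed in capitals.
miR-30a-5p: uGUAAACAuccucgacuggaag
miR-30c-5p: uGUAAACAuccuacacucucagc
miR-30e-5p: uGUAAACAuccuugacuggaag
miR-30a-3p: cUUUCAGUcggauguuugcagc
miR-30e-3p: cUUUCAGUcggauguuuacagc
miR-30c-1-3p: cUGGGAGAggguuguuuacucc
miR-30c-2-3p: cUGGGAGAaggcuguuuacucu
miR-30f: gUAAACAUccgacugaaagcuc

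All 5 entries of 5p arms, miR-30b-5p and miR-30d-5p included, carry the seed GUAAACA, which 1 other entry of the table, miR-384-5p, also carries. The 3p arms fall into 3 seed groups: miR-30a-3p, miR-30d-3p and miR-30e-3p share UUUCAGU, both miR-30c 3p arms share UGGGAGA, and miR-30b-3p has a seed of its own. Counted from 1 at the 5′ end, miR-30a-5p and miR-30e-5p differ by C13U and their 3p arms by G18A, with the miR-30a base first. miR-30d-5p is 1 edit from miR-30a-5p and 2 from miR-30e-5p, and miR-30b-5p is 3 edits from miR-30c-5p. No entry outside the family lay within 3 edits of a member. How the authors' counting treated reads that could match several of these sequences was not given in the sources used here, and the split between miR-30a, miR-30d and miR-30e is uncertain to that extent.

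Positions of Mir30b and Mir30d were not in the RefSeq miRNA table, and the hairpins placed here lie in pairs. In GRCm38 Mir30a lies on chromosome 1 at 23272269 to 23272339 and Mir30c-2 at 23291701 to 23291784, both on the plus strand and 19.4 kb apart. Mir30c-2 overlaps an exon of the long non-coding RNA Gm27028. Mir30c-1 and Mir30e lie on chromosome 4 at 120769534 to 120769622 and 120772606 to 120772697, both on the minus strand, 2.98 kb apart and, by the GENCODE annotation, in introns of Nfyc, which encodes a subunit of the transcription factor NF-Y. The mature miR-30f lies on the opposite strand of the Mir30e hairpin, at 120772621 to 120772642.

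Between 8194504 and 12817972 reads per UVA library and between 7653819 and 17192811 per non-irradiated library were assigned to miRNAs. The authors' total reads did not overlap between the groups, at 20.5 to 21.9 M for UVA and 26.9 to 30.5 M for non-irradiated skin, and a batch that followed this split cannot be told apart from the treatment. Non-irradiated replicates 1 and 2 stood apart in having 21 and 34 entries with 1 to 9 reads, against 299 in non-irradiated replicate 3 and 579 to 591 in each library of UVA skin. This bears on miR-30f, which had 1, 1 and 8 reads in UVA replicates 1 to 3 and none in the non-irradiated libraries. With so few reads no fold is given. By sampling alone, a count of 0 allows up to 3 reads, or 0.437 CPM (counts-per-million) in non-irradiated replicate 3. No such bound is given for non-irradiated replicates 1 and 2, where so few entries had 1 to 9 reads. The other 11 members had at least 74 reads in each library. Keratinocyte miRNAs, the check of the tissue, were present in every library, at a summed 34090 to 86159 CPM in UVA skin and 44041 to 53951 CPM in non-irradiated skin.

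Most miR-30 reads came from 5p arms, and miR-30a-5p and miR-30d-5p made up most of these. The 5p arms took 91.0% to 97.2% of the family's reads in the UVA libraries and 93.2% to 97.9% in the non-irradiated libraries. By mean CPM miR-30a-5p ranked 20 among all miRNAs in UVA skin and 18 in non-irradiated skin, and miR-30d-5p ranked 24 and 23. The order in non-irradiated skin went on with miR-30c-5p at rank 40, miR-30e-5p at 77, miR-30b-5p at 88, miR-30e-3p at 89 and miR-30a-3p at 91. miR-30c-2-3p at 127, miR-30b-3p at 140, miR-30d-3p at 233 and miR-30c-1-3p at 247 followed. In non-irradiated skin neighbours in this order overlapped in range, except that miR-30d-5p lay above miR-30c-5p, miR-30c-5p above miR-30e-5p and miR-30b-3p above miR-30d-3p in every library. In UVA skin the order was the same down to miR-30b-5p at rank 59, after which miR-30a-3p, at 87, stood before miR-30e-3p, at 107. The mature sequences are 22 or 23 nucleotides long, and no length correction was made. Ligation and amplification differ between sequences and were not corrected for, so the order is one of reads and not of molecules.

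**Figure D1:**
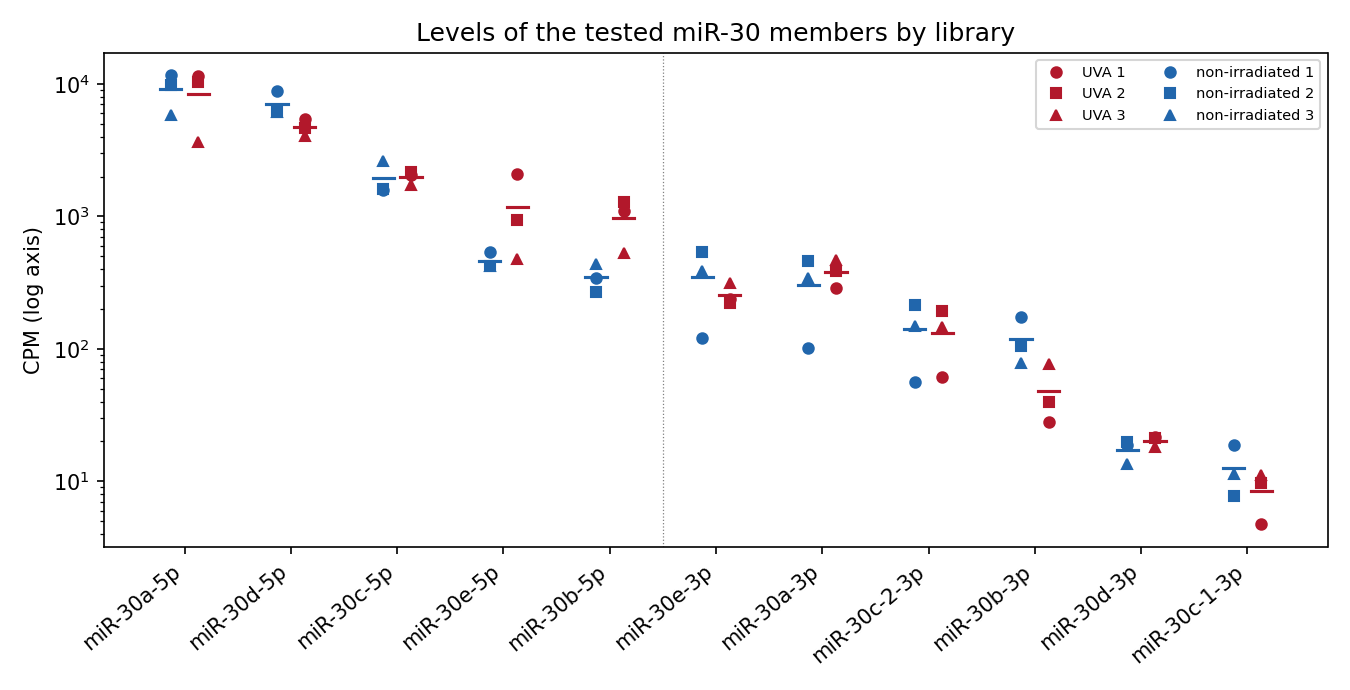
CPM of the 11 tested members (log axis) by library, 5p arms left of the dotted line and 3p arms right of it; points are libraries, short lines are group means, blue is non-irradiated and red is UVA. miR-30b-5p, miR-30b-3p and miR-30d-5p are the members whose groups do not overlap.

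The question of the main comparison was which members differ in level after repeated UVA exposure. The largest differences were at miR-30b, whose arms differed in opposite directions, and at miR-30e-5p, but with scaling by the trimmed mean of M-values (TMM) no member passed the threshold. Of the 11 members tested, 0 had an adjusted p of 0.05 or lower in edgeR's quasi-likelihood test, beside 21.8% of all 499 tested miRNAs (13.6% higher and 8.22% lower in UVA skin). 3 members had an unadjusted p of 0.05 or lower by edgeR, beside 40.7% of all tested miRNAs. The DESeq2 Wald test and limma-voom each called 1 member, miR-30b-5p, with adjusted p of 0.0449 and 0.0416, beside 22.9% and 30.3% of all miRNAs each tested. Of the 11 log2 fold changes from edgeR, 5 were positive and 6 negative. The median log2 fold change of the 11 members was -0.080, beside 0.27 for all tested miRNAs. In whole skin, fewer cells of a type and less RNA per cell cannot be told apart.

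miR-30b-5p was at 1100, 1284 and 527 CPM in UVA replicates 1 to 3 and at 341, 270 and 434 CPM in the non-irradiated replicates. Every UVA library was above every non-irradiated one, with UVA replicate 3 closest to the controls. The means were 970 ± 395 and 349 ± 82.3 CPM (SD, n = 3 per group), and the log2 fold change was 1.48 (SE 0.49, edgeR adjusted p = 0.0565). Its passenger arm miR-30b-3p was at 28.1, 39.8 and 76.8 CPM in UVA skin and at 174.5, 106 and 77.9 CPM in non-irradiated skin. Here every UVA library was below every non-irradiated one, although UVA replicate 3 and non-irradiated replicate 3 were nearly equal. The log2 fold change of miR-30b-3p was -1.31 (SE 0.57, edgeR adjusted p = 0.115).

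miR-30e-5p was at 2092, 938 and 481 CPM in UVA skin and at 534, 420 and 421 CPM in non-irradiated skin. UVA replicate 1 was far above the rest and UVA replicate 3 lay within the non-irradiated range, so the groups overlapped. The log2 fold change was 1.35 (SE 0.56, edgeR adjusted p = 0.101), and it was 0.57 without UVA replicate 1. miR-30d-5p was lower in every UVA library, at 5434, 4665 and 4049 CPM against 8874, 6139 and 6122 CPM in non-irradiated skin. Its log2 fold change was -0.58 (SE 0.37, edgeR adjusted p = 0.256).

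The abundant miR-30a-5p was at 11380, 10286 and 3626 CPM in UVA skin and at 11586, 9886 and 5858 CPM in non-irradiated skin. Replicate 3 was the lowest library of each group, and the groups overlapped (log2 fold change -0.11, SE 0.49, edgeR adjusted p = 0.897). miR-30c-5p, which can come from Mir30c-1 and from Mir30c-2, was at 2039, 2159 and 1711 CPM in UVA skin and at 1568, 1614 and 2624 CPM in non-irradiated skin. The ranges overlapped (log2 fold change 0.025, SE 0.40, edgeR adjusted p = 0.973). When the 5 entries of 5p arms were summed to 1, the log2 fold change was -0.16 (SE 0.41, edgeR adjusted p = 0.789).

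Among the other 3p arms, miR-30a-3p was at 286, 385 and 470 CPM in UVA skin and at 101, 459 and 343 CPM in non-irradiated skin. miR-30e-3p was at 236, 221 and 312 CPM in UVA skin and at 122, 535 and 388 CPM in non-irradiated skin, and miR-30c-2-3p at 61.4, 192 and 145 CPM and at 56.2, 215 and 150 CPM. These 3 arms shared their low library in the controls, non-irradiated replicate 1, and their high library, non-irradiated replicate 2. miR-30c-1-3p went the other way in the controls, with 18.7 CPM in replicate 1 and 7.79 CPM in replicate 2, and was at 4.72 to 11.1 CPM in UVA skin. miR-30d-3p was the steadiest 3p arm, at 18.04 to 21.6 CPM in UVA skin and 13.4 to 19.8 CPM in non-irradiated skin. The groups overlapped for these 5 arms, and their edgeR adjusted p ranged from 0.538 to 0.941.

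**Figure D2:**
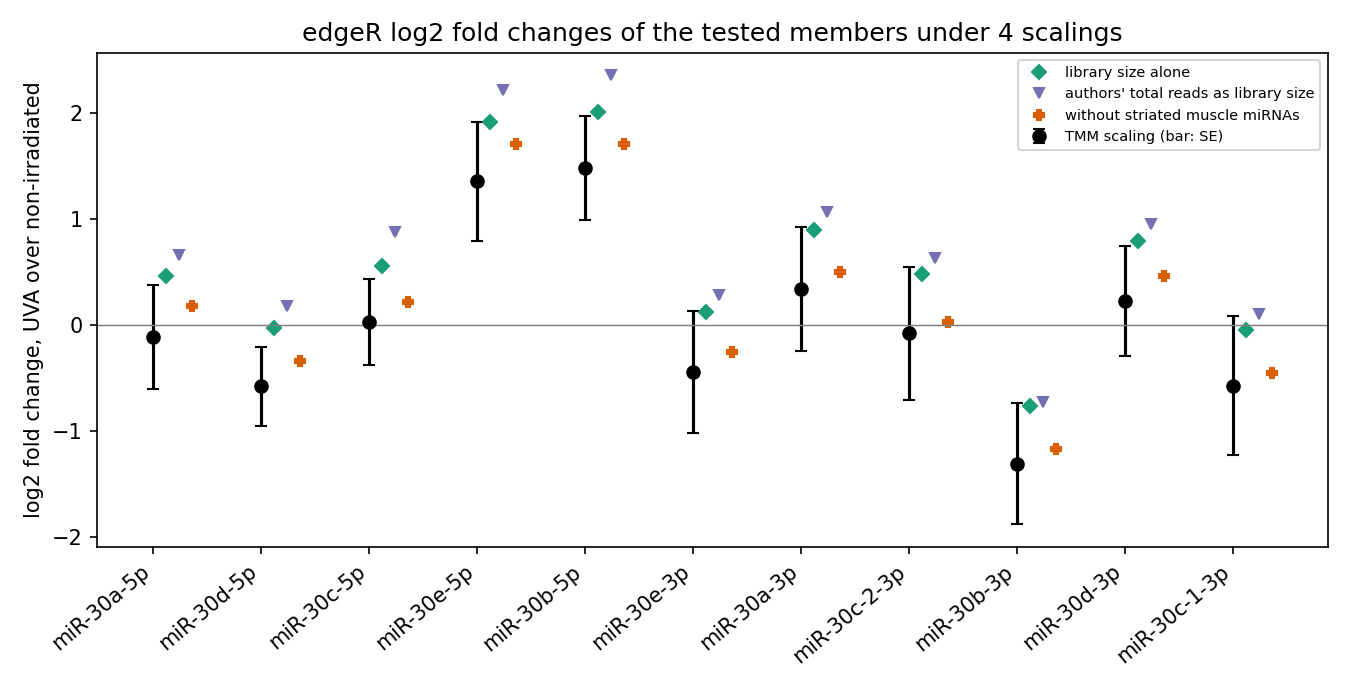
edgeR log2 fold changes, UVA over non-irradiated, of the 11 tested members; black points with bars are TMM scaling with its SE, and colours are 3 other scalings. The points of miR-30b-5p and miR-30e-5p lie above 0 and those of miR-30b-3p below 0 under each scaling shown, while those of miR-30a-5p, miR-30c-1-3p, miR-30c-2-3p, miR-30d-5p and miR-30e-3p change side under at least 1 of them.

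In all, 3 of 11 members had groups that did not overlap, beside 48.3% of all tested miRNAs. The calls depended on which scaling was used. With relative log expression and upper-quartile factors, as with TMM, edgeR called 0 members (miR-30b-5p adjusted p = 0.0533 and 0.0638). With library size alone, miR-30b-5p (log2 fold change 2.01, edgeR adjusted p = 0.0187) and miR-30e-5p (1.91, edgeR adjusted p = 0.0331) rose, as they did when the authors' total reads set the library size (2.35 and 2.21, edgeR adjusted p = 0.0104 and 0.0233). The median of all tested miRNAs was then 0.81 and 1.07, against 0.27 with TMM scaling. Among all tested miRNAs 122 were then called higher and 27 lower with library size alone, and 145 and 22 with the authors' totals, against 68 and 41 with TMM scaling. miR-30b-5p also rose without the striated muscle miRNAs (1.70, edgeR adjusted p = 0.0487), where 107 of 490 miRNAs were called, and without UVA replicate 3 miR-30b-5p and miR-30e-5p rose and miR-30b-3p fell (1.78, 1.74 and -1.80, edgeR adjusted p = 0.0212, 0.0310 and 0.0442), in a fit that called 124 of all 551 miRNAs tested. In the authors' deposited table miR-30b-5p had the smallest q-value of the 12 entries, 0.167, with a p-value of 0.0117.

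The summed level of the striated muscle miRNAs was 41907 to 58523 CPM in UVA skin and 318624 to 479266 CPM in non-irradiated skin, with 6 of 7 names found. miR-1a-3p made up most of it, at 36976 ± 17160 and 362204 ± 70709 CPM (SD, n = 3 per group), and fell (log2 fold change -3.29, edgeR adjusted p = 0.00196). Of the other 4 tested, miR-133b-3p rose (1.84, edgeR adjusted p = 0.0459), while miR-206-3p, miR-133a-3p and miR-499-5p were not called (-1.16, -0.024 and -1.57, edgeR adjusted p of 0.159 to 0.976). The fibroblast miRNAs, 5 of 5 found, were at a summed 19107 to 28739 CPM in UVA skin and 2816 to 4234 CPM in non-irradiated skin. The joint entry of miR-199a-3p and miR-199b-3p made up most of the UVA sum, with a mean of 17603 CPM. Of the 5, 3 rose, while miR-199b-5p and miR-214-3p were not called (0.34 and 1.14, edgeR adjusted p = 0.753 and 0.0824). Endothelial (2 found), erythroid (4) and leukocyte (4) miRNAs overlapped between the groups in summed level, at 14102 to 25741 against 20480 to 26426 CPM, 814 to 3434 against 2118 to 2914 CPM and 369 to 1362 against 486 to 792 CPM. Within these lists miR-126a-5p of endothelium (-2.12, edgeR adjusted p = 0.0255) and miR-150-5p of lymphocytes (-1.51, edgeR adjusted p = 0.0461) fell, and the other 8 were not called. No marker found in the table was at 0 in all libraries. The part of the change in muscle and fibroblast miRNAs in the miR-30 results was not tested beyond the fit without the muscle list.

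The next comparison asked whether the family as a whole took another share of the miRNA reads. It held 2.77%, 2.45% and 1.36% of the miRNA reads in UVA replicates 1 to 3 and 1.94%, 1.498% and 1.48% in the non-irradiated replicates. UVA replicate 3 was the lowest of all libraries and the other UVA libraries were the highest. The means were 2.19% ± 0.740 and 1.64% ± 0.260 (SD, n = 3 per group; exact permutation test, 2-sided, p = 0.4, adjusted p = 0.4 over 3 tests). The same test gave p = 0.4 for the 5p arms alone, at 2.09% ± 0.761 and 1.56% ± 0.291, and p = 0.4 for the 3p arms alone, at 0.102% ± 0.0226 and 0.0770% ± 0.0323 (exact permutation, n = 3 per group). With 3 against 3 the smallest p is 0.1. As a share of the miRNA reads without the striated muscle list, the difference turned from 0.558 to -0.118 percentage points.

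Within the 5p reads, a make-up that no library scaling affects, miR-30b-5p and miR-30e-5p had higher shares in every UVA library than in any control. miR-30b-5p took 4.99%, 6.64% and 5.07% of the 5p reads in UVA replicates 1 to 3 and 1.49%, 1.47% and 2.81% in the non-irradiated replicates. miR-30e-5p took 9.49%, 4.85% and 4.63% in UVA skin and 2.33%, 2.29% and 2.72% in non-irradiated skin. For both members every UVA library was above every non-irradiated one. The differences were 3.64 and 3.87 percentage points, with p = 0.1 for each, the smallest that this exact 2-sided permutation test can give (adjusted p = 0.25 over 5 members). Shares of the same total are not independent. How often such shares separate in other families was not computed, while in CPM the groups did not overlap for 48.3% of all tested miRNAs.

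miR-30d-5p took 24.7%, 24.1% and 39.0% in UVA skin and 38.7%, 33.5% and 39.6% in non-irradiated skin (exact permutation p = 0.3, adjusted p = 0.5). UVA replicate 3 was at the level of the controls and the other UVA libraries were below them. miR-30a-5p took 51.6%, 53.2% and 34.9% in UVA skin and 50.6%, 53.9% and 37.9% in non-irradiated skin (exact permutation p = 0.8, adjusted p = 0.8). miR-30c-5p took 9.25%, 11.2% and 16.5% in UVA skin and 6.85%, 8.80% and 17.0% in non-irradiated skin (exact permutation p = 0.7, adjusted p = 0.8). For both, replicate 3 of each group stood apart from replicates 1 and 2, with less miR-30a-5p and more miR-30c-5p.

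**Figure D3:**
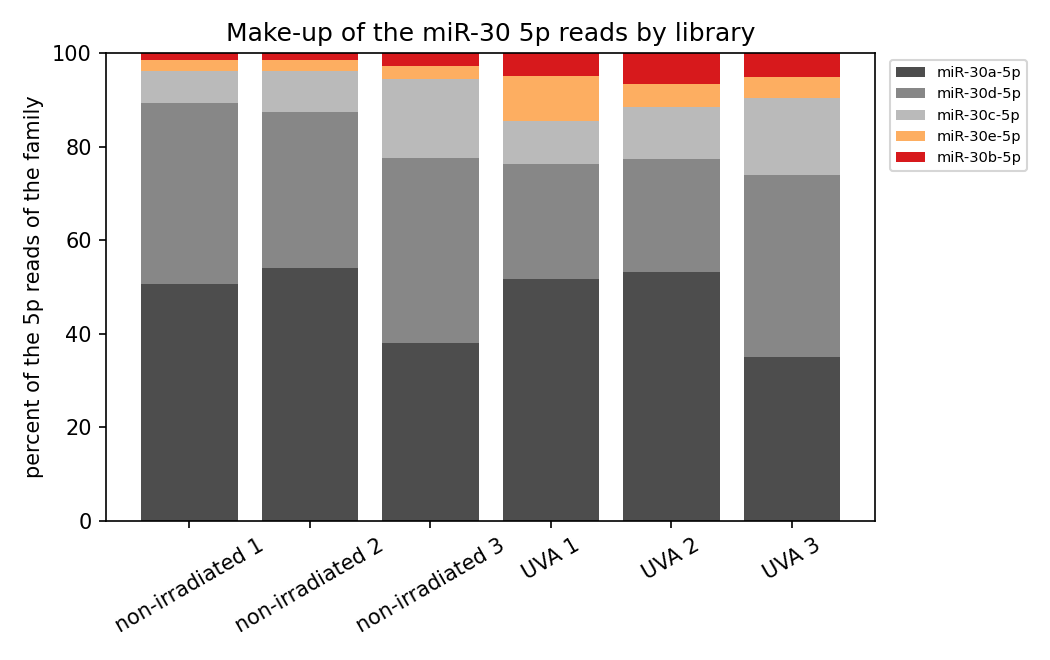
Percent of the family's 5p reads held by each 5p arm, stacked to 100 per library. The orange and red parts, miR-30e-5p and miR-30b-5p, together are wider in each UVA library than in each non-irradiated library, and both replicates 3 hold less miR-30a-5p.

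Among the 3p reads, miR-30a-3p took 44.8%, 44.3% and 45.5% in UVA skin, with hardly any spread, and 20.6%, 34.2% and 34.9% in non-irradiated skin. miR-30b-3p took 4.398%, 4.58% and 7.43% in UVA skin and 35.6%, 7.88% and 7.92% in non-irradiated skin. The groups did not overlap for either arm (exact permutation p = 0.1, 2-sided, adjusted p = 0.3 over 6 members), but the size of the miR-30b-3p difference came largely from non-irradiated replicate 1. The other 4 arms overlapped. No share without overlap was computed over the make-up of other families, while in CPM the groups did not overlap for 48.3% of all tested miRNAs. The separation is therefore not read as a result about these arms.

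The ratio of the arms of 1 hairpin, which does not depend on library scaling either, passed the test for miR-30b. Differences between the hairpins themselves were not tested. The ratio of 5p to 3p reads of miR-30b was 39.2, 32.3 and 6.86 in UVA replicates 1 to 3 and 1.96, 2.55 and 5.57 in the non-irradiated replicates. All UVA libraries were above all non-irradiated ones, with both replicates 3 close to each other. In a limma fit over 79 hairpins the log2 ratio was higher by 2.76 in UVA skin (SE 0.75, limma adjusted p = 0.00155). This SE rests on a variance shared over the hairpins. The log2 ratio of miR-30b itself had an SD of 1.38 in UVA and 0.785 in non-irradiated skin. miR-30b was 1 of 4 miR-30 hairpins tested and the only one called. In all, 35.4% of the hairpins were called, 13.9% toward 5p, so a call was common, and miR-30b ranked 15 of 79 by p. The call was lost without non-irradiated replicate 2 (2.64, limma adjusted p = 0.0552), and without UVA replicate 3 the change was 3.55. Without non-irradiated replicates 1 and 2 together, which left only non-irradiated replicate 3 as control, it was 1.88.

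miR-30e had 5p to 3p ratios of 8.86, 4.24 and 1.54 in UVA skin and 4.39, 0.784 and 1.08 in non-irradiated skin. The 3p arm was above the 5p arm in non-irradiated replicate 2 alone, and the groups overlapped (log2 change 1.32, SE 0.75, limma adjusted p = 0.168). Without UVA replicate 3 miR-30e was called as well (1.98, limma adjusted p = 0.0322). miR-30d was the hairpin with the strongest 5p bias, with ratios of 251, 221 and 224 in UVA skin and 473, 310.4 and 457 in non-irradiated skin. Every UVA library was below every non-irradiated one (log2 change -0.81, SE 0.75, limma adjusted p = 0.401). miR-30a had ratios of 39.8, 26.7 and 7.72 in UVA skin and 115, 21.5 and 17.1 in non-irradiated skin (log2 change -0.79, SE 0.75, limma adjusted p = 0.409). The SE is nearly the same for all 4 because limma drew each variance to a value shared over the hairpins. These limma p-values therefore do not measure the spread of each hairpin by itself. Groups did not overlap in 44.3% of the 79 hairpins.

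miR-30c-5p has 2 source hairpins and was not in that fit. Its reads were 155 to 432 times those of miR-30c-1-3p in UVA skin and 83.9 to 231 times in non-irradiated skin, and 11.3 to 33.2 times and 7.52 to 27.9 times those of miR-30c-2-3p.

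**Figure D4:**
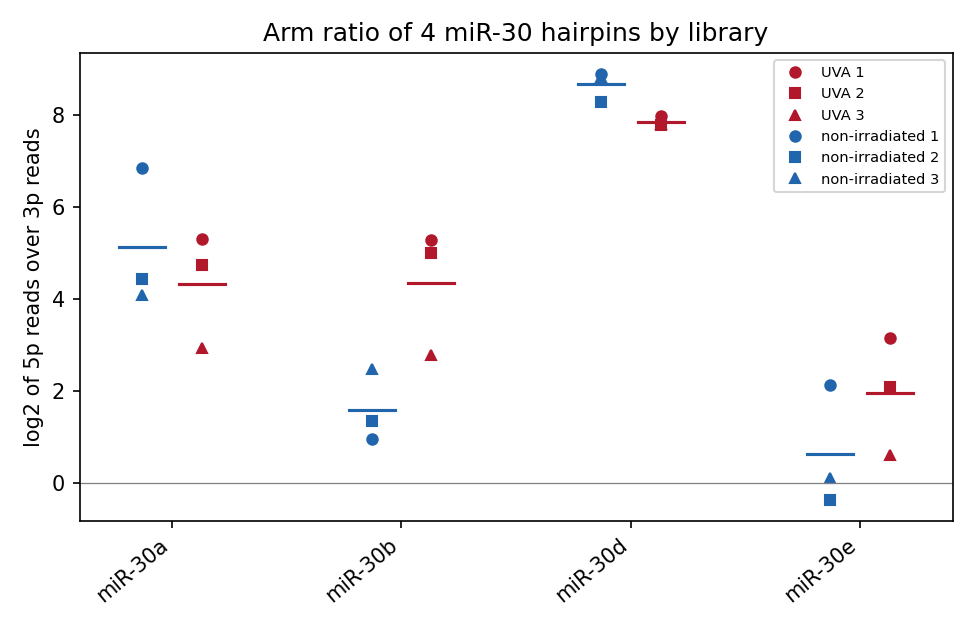
log2 of 5p reads over 3p reads of 4 miR-30 hairpins by library, with group means as short lines. The UVA points of miR-30b, at 2.78 to 5.29, lie above the non-irradiated points, at 0.97 to 2.48, and those of miR-30d lie below.

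miR-30a and miR-30e, which differ by 1 base in each arm, had a ratio to each other that was higher in UVA skin on the 5p arm and lower on the 3p arm. This pair was chosen after its values were seen. Reads of miR-30e-5p were 0.184, 0.0912 and 0.133 times those of miR-30a-5p in UVA replicates 1 to 3 and 0.0461, 0.0425 and 0.0718 times in the non-irradiated replicates. Reads of miR-30e-3p were 0.825, 0.575 and 0.663 times those of miR-30a-3p in UVA skin and 1.21, 1.17 and 1.13 times in non-irradiated skin. Neither ratio overlapped between the groups, and the 3p ratio of the controls varied little, with a mean of 1.17 ± 0.0378 (SD, n = 3).

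On the geometric mean the 5p ratio was 2.51-fold higher in UVA skin and the 3p ratio was 0.583 times that of non-irradiated skin. No test is given for a pair chosen this way. Over all 25 ratios between members of the same arm, 8 did not overlap between the groups, 5 of 10 on the 5p arm and 3 of 15 on the 3p arm. The 5 on the 5p arm each had miR-30b-5p or miR-30e-5p as 1 partner. The ratios share members and are not independent. No share was computed over ratios of other miRNAs, while in CPM the groups did not overlap for 48.3% of all tested miRNAs. These counts of ratios are therefore not read as a result about the family. miR-30b-5p over miR-30c-5p was 0.540, 0.595 and 0.308 in UVA skin and 0.218, 0.167 and 0.166 in non-irradiated skin, while miR-30b-5p over miR-30e-5p overlapped.

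**Figure D5:**
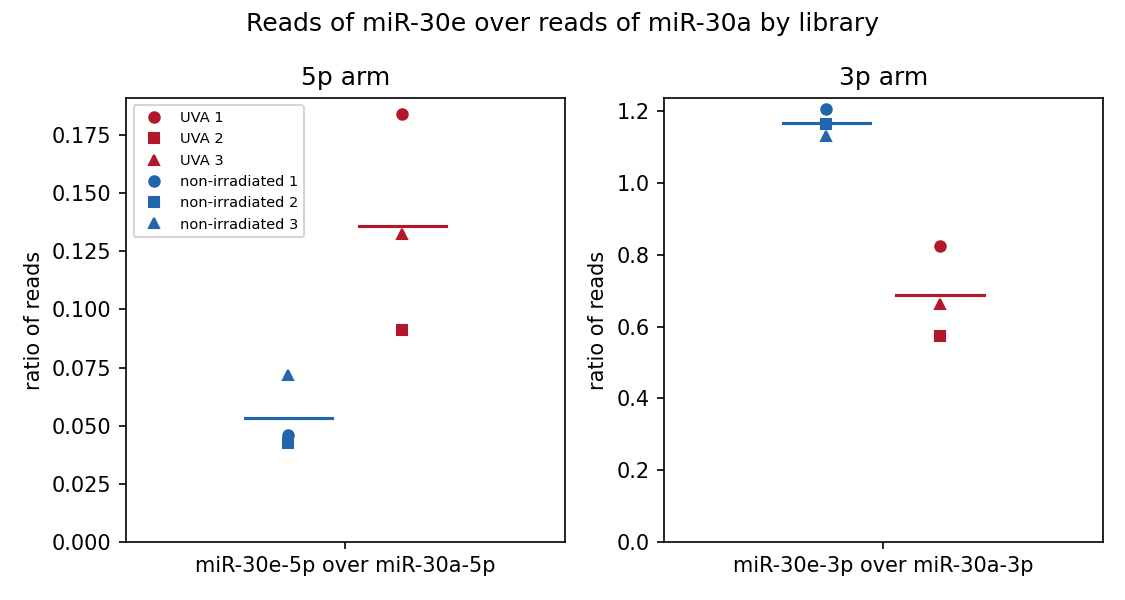
Reads of miR-30e over reads of miR-30a by library for the 5p arm and for the 3p arm, with group means as short lines and axes that start at 0. The UVA libraries lie above the non-irradiated ones on the 5p arm and below them on the 3p arm.

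The reads of the 3p arms of the neighbouring hairpins placed above did not keep a fixed ratio over the libraries. Whether they kept one less well or better than hairpins that lie apart was not tested. miR-30c-1-3p had only 74 to 225 reads per library. miR-30c-2-3p over miR-30a-3p, from the chromosome 1 pair, was 0.215, 0.497 and 0.309 in UVA skin and 0.558, 0.467 and 0.437 in non-irradiated skin. miR-30e-3p over miR-30c-1-3p, from the chromosome 4 pair, was 50.03, 23.0 and 28.1 in UVA skin and 6.51, 68.7 and 34.1 in non-irradiated skin. The first ratio was steadier within the controls than the second, and both overlapped between the groups (exact permutation p = 0.3 and 0.9, n = 3 per group). Mir30b and Mir30d, without positions here, were not compared as neighbours. miR-30b-3p over miR-30d-3p was 1.30, 1.88 and 4.26 in UVA skin and 9.30, 5.35 and 5.82 in non-irradiated skin, without overlap. Nor did miR-30b-5p over miR-30d-5p overlap between the groups.

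The 3 miRNAs outside the family whose levels were most like those of the summed 5p reads over the 6 libraries were miR-152-3p, miR-194-5p and miR-148a-5p. Likeness was the root mean square difference between centred log2 CPM values, which was 0.15, 0.16 and 0.23, beside a median of 1.17 over 488 tested miRNAs. miR-152-3p was at 2877, 2402 and 981 CPM in UVA skin and at 2702, 2149 and 1853 CPM in non-irradiated skin, the same order of libraries within each group as the summed 5p reads, at 22045, 19331 and 10394 CPM and 22904, 18329 and 15458 CPM. miR-384-5p, which shares the 5p seed, had 4, 4 and 2 reads after UVA and 10, 0 and 9 reads in the controls. Its count of 0 was in non-irradiated replicate 2, which had few entries with low counts.

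Other miRNAs of processes in which the family is known to act were counted in the same edgeR fit, with p adjusted over all miRNAs. Of 8 miRNAs known to restrain the epithelial-mesenchymal transition, 2 rose, none fell and 6 were not called, beside 21.8% called among all tested miRNAs (13.6% higher), with a median log2 fold change of 0.95 beside 0.27 for all tested miRNAs. miR-205-5p, which represses the mRNAs of Zeb1 and Zeb2, was at 672 ± 196 CPM in controls and 5256 ± 2057 CPM after UVA (SD, n = 3 each; log2 fold change of 2.97 with SE 0.47, edgeR adjusted p = 0.00450). The p53-induced miR-34a-5p was at 21.2 ± 9.92 CPM in controls and 112 ± 60.6 CPM after UVA (2.39, SE 0.64, edgeR adjusted p = 0.0261). The most abundant of them, miR-203-3p, a repressor of p63 in epidermis, was not called (log2 fold change 0.26, edgeR adjusted p = 0.670). All 7 miRNAs of the keratinocyte list are also in this one. The count of 2 became 1 without UVA replicate 2 and without each non-irradiated replicate in turn.

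Of 13 miRNAs described in adipocyte differentiation, 1 rose, 1 fell and 11 were not called, beside the same 21.8%, with a median log2 fold change of 0.25. miR-107-3p, a relative of miR-103-3p that lies in a Pank gene, was at 31.9 ± 10.4 CPM in controls and 273 ± 160.0 CPM after UVA (SD, n = 3 each; 3.10, SE 0.62, edgeR adjusted p = 0.00924). miR-143-3p, which is also a main miRNA of smooth muscle, was at 92245 ± 50051 CPM in controls and 30668 ± 2871 CPM after UVA (-1.59, SE 0.42, edgeR adjusted p = 0.0255). The abundant miR-148a-3p and miR-26a-5p had log2 fold changes of -0.86 and 0.27 and were not called (edgeR adjusted p = 0.242 and 0.551). The count of 2 became 4 with library size alone, 1 without UVA replicates 2 and 3 in turn and 0 without non-irradiated replicate 2.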

How the data were processed

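Small RNA was sequenced from 6 skin samples with the TruSeq Small RNA kit after mirVana isolation, per the labels' protocols; the submitters' processing notes name Bowtie, while version, genome build and miRNA release were not given in the sources used here. Deposited counts are whole reads per mature sequence (1480 entries; 2 further lines were empty and not analysed here). RPM, also deposited by the authors, equals counts over 1 constant per library, which gave the authors' total reads (20.5 to 30.5 M). The authors' deposited table also holds their mean normalized signal, fold ratio, log2 fold change, p-value and q-value per entry, by a tool that was not given in the sources used here. Of it, only the p-value of miR-30b-5p and the q-values of the 12 entries were used.

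Counts were fitted over the whole table with edgeR 4.0.16 (TMM, filterByExpr, quasi-likelihood test, Benjamini-Hochberg, threshold 0.05) in R 4.3.3. SE is the absolute log2 fold change over the square root of F. CPM values are counts-per-million after TMM scaling over the tested miRNAs. Arm use was fitted with limma 3.58.1 on the log2 ratio of the arms' reads, 0.5 added to each, for hairpins whose arms both had at least 10 reads in every library. Shares and ratios were compared with exact permutation tests (SciPy 1.17.1). Alternatives included DESeq2 1.42.0, limma-voom, other scalings and leaving out libraries. The edgeR fit with TMM scaling was also run on simulated counts, and the limma arm fit on simulated, normally distributed log2 ratios. The alternatives were not tested on simulated data. Exact Clopper-Pearson 95% half-widths of single-library shares were at most 0.301 percentage points for the family and the 5p arms and 1.23 for the 3p arms; they cover counting error only, as reads lack molecular identifiers. Replicates of a group all differed by more than sampling noise.

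Members, lists and tests were chosen with earlier results of these data known. The text names every member, the 3 miRNAs most like the summed 5p reads, the most abundant miRNAs of each context list, and the marker lists by summed level. miR-34a-5p, miR-107-3p and single miRNAs of the marker lists are named beside these, chosen after their values were seen.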

Additional observations from a re-analysis of the deposited data

How the results depend on the processing

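The count of called members, 0 with edgeR and TMM scaling, was 2 with library size alone, 2 when the authors' total reads set the library size, 1 without the striated muscle miRNAs, 1 with the DESeq2 Wald test and 1 with limma-voom, 0 with relative log expression or upper-quartile factors, and 0 to 3 when single libraries were left out. The calls over all miRNAs moved too, from 109 of 499 to 149 and 167 of 499 with library size alone and the authors' totals, and from 38 of 564 to 124 of 551 over the single libraries left out, so these counts of members are not read as a result about the family. The single call in arm use ranged from 0 to 2 when single libraries were left out. Without non-irradiated replicates 1 and 2 together, which left only non-irradiated replicate 3 as control, the log2 change of the miR-30b arm ratio was 1.88. The log2 fold changes of miR-30b-5p, miR-30b-3p, miR-30e-5p and miR-30d-3p kept their sign under every alternative run.

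Members near 0 changed sign. With library size alone the log2 fold change was 0.46 for miR-30a-5p, 0.48 for miR-30c-2-3p, 0.12 for miR-30e-3p and 0.42 for the summed 5p entry, and under the authors' total reads 0.66, 0.63, 0.28 and 0.65, with 0.10 for miR-30c-1-3p and 0.18 for miR-30d-5p. Without the striated muscle miRNAs it was 0.18 for miR-30a-5p and 0.030 for miR-30c-2-3p. miR-30c-5p was at -0.055 with upper-quartile factors and -0.051 with no filter on low counts. Without non-irradiated replicates 1 and 2 it was -0.74 for miR-30c-5p, 0.27 for miR-30a-5p, -0.25 for miR-30a-3p and 0.24 for the arm ratio of miR-30a. Leaving out single libraries gave -0.27 to 0.43 for miR-30a-3p, -0.44 to 0.27 for miR-30a-5p, -0.68 to 0.20 for miR-30c-2-3p, -0.37 to 0.25 for miR-30c-5p, -0.45 to 0.096 for the summed 5p entry and -1.30 to 0.073 for the arm ratio of miR-30a. Without the striated muscle list in the denominator the family's share differed by -0.118, its 5p share by -0.115 and its 3p share by -0.00267 percentage points. The 5p share of miR-30a-5p differed by -5.69 to 4.94 and that of miR-30c-5p by -0.667 to 4.47 percentage points when single libraries were left out, and miR-30a-5p by 2.28 among miR-30a-5p, miR-30d-5p and miR-30e-5p alone. The cause of these changes was not tested.

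The calls in the epithelial-mesenchymal transition list ranged from 1 to 3 and in the adipocyte list from 0 to 3 when single libraries were left out, and the latter was 4 with library size alone. The ratios of miR-30e to miR-30a, whose alternatives were chosen after seeing the data, kept their direction without each single library, with log2 changes of 1.08 to 1.59 on the 5p arm and -0.92 to -0.66 on the 3p arm. The deviations of same-numbered libraries from their group means had correlations of 0.085, -0.076 and -0.027 over all miRNAs, and the numbers were not taken to pair the libraries, although pairing is not excluded by this. With the replicate number as a block 0 members and 0 miR-30 hairpins were called (miR-30b limma adjusted p = 0.0771). Differences under the depth limit, such as that of miR-30f at 10 reads in all, could not be assessed.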
